A study of Homo sapiens with 9 samples.

Results

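Cholesterol synthesis, its control and the export and storage of sterol were followed through 28 genes in C28/I2, an established line of immortalised human chondrocytes (cartilage cells). The genes were chosen by symbol for their roles, with earlier results of these data known. All 28 were found among the 60671 genes of the count tables, and all 28 passed the filter on low counts that left 19812 genes to test. They comprise 7 enzymes that lead from acetyl-CoA to farnesyl diphosphate, 11 enzymes from squalene to cholesterol, 4 genes of the SREBP control system, 2 of sterol transport and storage, and 4 of the LXR and efflux system.

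RNA was sequenced from 9 libraries, 3 in each of 3 groups, all of them C28/I2 cells. The CA2 shRNA group had been transduced with a short hairpin RNA directed at CA2, the gene of the cytosolic carbonic anhydrase that hydrates carbon dioxide. The Scrambled group carries the name of a scrambled construct, and the Control group is labelled only as Control. The labels do not say how many hairpins were used, whether the Control cells were transduced, or whether separate cultures gave the 3 libraries of a group. The p-values therefore rest on library-to-library spread alone, which may be technical.

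Animal cells make cholesterol from acetyl-CoA through mevalonate, squalene and lanosterol. The transcription factors SREBF2 and SREBF1 switch on most genes of this route. They are held in the endoplasmic reticulum with the escort protein SCAP, which INSIG1 retains when sterol is plentiful and which carries them to the Golgi for cleavage when sterol is short. The liver X receptors NR1H2 and NR1H3 sense oxidised sterols and switch on the exporters ABCA1 and ABCG1, while SOAT1 esterifies surplus cholesterol for storage. Chondrocytes make cholesterol for their membranes and are known to load and unload sterol through the same machinery.

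Promoter letters are shown first, because the enzymes share a sequence feature that was not used to choose them. RefSeq windows from 250 bases before to 50 bases after a start site (GRCh38.p14) were at hand for 24 of the 28 genes, with none for ABCG1, ACAT2, FDFT1 and SQLE. CCAAT, searched on both strands, is the core of the element bound by the factor NFY, a partner of SREBP at sterol genes. It was present in 18 of the 24 genes (75%), in 13 of the 15 enzymes with a window, and in 42% of the 12523 tested genes with a window. Genes with several start sites have more letters to match, so the shares describe the windows only. The stretches below lie before a RefSeq start and outside every GENCODE 29 exon; CCAAT or its complement ATTGG is in capitals, HMGCS1 and DHCR7 being enzymes that changed, NSDHL an enzyme that did not pass and SCAP a gene that fell.

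HMGCS1 chr5:43313513-43313662, minus strand: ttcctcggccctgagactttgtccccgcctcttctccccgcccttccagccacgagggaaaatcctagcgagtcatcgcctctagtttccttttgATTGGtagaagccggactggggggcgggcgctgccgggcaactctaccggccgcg
DHCR7 chr11:71448436-71448643, minus strand: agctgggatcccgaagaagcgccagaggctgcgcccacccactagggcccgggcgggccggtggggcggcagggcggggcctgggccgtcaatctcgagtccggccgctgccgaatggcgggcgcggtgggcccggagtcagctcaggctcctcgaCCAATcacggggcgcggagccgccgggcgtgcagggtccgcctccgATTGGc
NSDHL chrX:152830813-152830966, plus strand: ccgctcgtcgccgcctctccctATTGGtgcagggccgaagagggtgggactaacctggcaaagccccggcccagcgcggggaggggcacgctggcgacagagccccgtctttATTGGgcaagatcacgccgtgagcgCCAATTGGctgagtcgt
SCAP chr3:47476114-47476191, minus strand: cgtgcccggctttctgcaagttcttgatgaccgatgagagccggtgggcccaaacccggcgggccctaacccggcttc

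The first CCAAT letters of HMGCS1 began 155 bases before its start, those of DHCR7 94 and 48 bases before, and the 5 matches of NSDHL between 228 and 84 bases before, 4 of which fall in the stretch shown. SCAP and NR1H2 had none in their windows, and neither had PMVK, CYP51A1, SREBF1 and ABCA1. The storage gene SOAT1 had 1 match, 85 bases before its start, and SREBF2 had 1 at 106 bases. For the short SOAT1 and SREBF2 stretches below, GENCODE 29 exons were not excluded. That of SOAT1 runs into an annotated exon starting at base 179293714. The sterol regulatory element was searched in 1 form only, TCACNCCAC, on both strands. That form was present in 1 of the 24 genes, SREBF2, at 133 bases before its start, and in 1.4% of the tested genes with a window. Elements with other letters were not searched, so the lack of a match does not show that a gene lacks the element. A match to these letters is a description and shows no binding.

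SOAT1 chr1:179293700-179293728, plus strand: acctggggaccaCCAATaggatgctcagc
SREBF2 chr22:41832987-41833015, plus strand: cttcgctcgcccATTGGctgagatgagcc
SREBF2 chr22:41832960-41832992, plus strand: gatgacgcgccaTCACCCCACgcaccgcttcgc

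2 further motifs were searched on both strands. CACGTG, the E box, was in the windows of 5 of the 24 genes (20.8%), against 12% of tested genes, and was the only one of the 3 non-GC motifs in the SCAP window, at 58 bases before its start. GGGCGG, the GC box bound by SP1, was in 23 of the 24 (95.8%) against 74.8%, with NSDHL alone lacking it.

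Library totals ran from 16994368 to 34261244 counts, and mitochondrial genes took 4.06% to 6.87% of them. Control 3 and Scrambled 2 stood apart from their own groups together. They had the lowest mitochondrial shares, 4.06% and 4.08%, and their counts were closer to each other (chi-square per gene 3.7) than any libraries of 1 group were (4.64 or more). Control 1 and Scrambled 3 were also closer than that (3.96). Without Control 3 and Scrambled 2, the 6 genes called below against Scrambled passed again, and against Control DHCR7 joined the 5 that pass. CA2 itself measured 2.31, 2.0 and 1.94 CPM (counts scaled to sequencing depth, here with edgeR's TMM factors) for Control, 1.82, 1.96 and 2.06 for Scrambled, and 1.4, 0.905 and 1.1 for CA2 shRNA. CA2 fell against Scrambled by 0.77 on the log2 scale (adjusted p = 0.0276) and by 0.86 against Control (adjusted p = 0.0159), on 15 to 66 counts per library. The call was lost without any of several single libraries and with no filter, with adjusted p up to 0.109 against Scrambled and 0.0759 against Control. Of 11 chondrocyte markers, 5 were under 1 CPM in every library, among them SOX5, PRG4 and HAPLN1, and COL9A1 was at 0 throughout. The marker list summed to 101 to 116 CPM in Control, 108 to 112 in Scrambled and 120 to 122 in CA2 shRNA, most of it SOX9. SOX9 rose by 0.20 against Scrambled (adjusted p = 0.0364), while COMP fell by 0.86 (adjusted p = 0.0161) and the other 4 tested markers did not pass. Of the 6 tested markers 5 had negative log2 changes in each CA2 shRNA comparison, with a median over the 6 of -0.16 against Scrambled and -0.34 against Control. COL2A1 stayed between 1.45 and 2.23 CPM, and lists of immune, endothelial, epithelial, hepatocyte and adipocyte markers summed to at most 4.86 CPM in any library. The part of these marker changes in the results below was not tested.

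Against Scrambled, 5 of the 28 genes rose in CA2 shRNA cells, 1 fell and 22 did not pass the threshold (adjusted p under 0.05, edgeR's quasi-likelihood test, Benjamini-Hochberg adjustment over all 19812 genes). The rises were ACAT2 and HMGCS1, the opening enzymes of the pathway, DHCR7, its last enzyme, the storage enzyme SOAT1 and the receptor NR1H2, by 16.2% to 30.0% of the Scrambled mean. The fall was SCAP, the escort of SREBP, by 14.6%. Of all tested genes 8.02% rose and 8.88% fell in this comparison. Among the 28, 17.9% rose and 3.57% fell. All tested genes include many at low counts and were not matched to the 28 by level. Under the filter of at least 1 CPM in 3 libraries, 1972 of 16251 genes rose and 1696 fell, beside 5 and 1 of the 28. Against Control, ACAT2, HMGCS1, SOAT1 and NR1H2 rose (14.3% of the 28), SCAP fell, and 23 did not pass, where 6.41% of all genes rose and 8.26% fell. Both comparisons use the same CA2 shRNA libraries, so the second is no independent repeat of the first. In bulk RNA, fewer cells with a transcript and less of it per cell cannot be told apart.

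Most of the remaining genes lay slightly above 0 without passing. In CA2 shRNA less Scrambled 22 of the 28 log2 changes were positive and 6 negative, with a median of 0.105 and a range from -0.34 to 0.46. All tested genes had a median of -0.03, and 46.2% of them were positive. In CA2 shRNA less Control 21 were positive and 7 negative, with a median of 0.07, against 0.00 (49.3% positive) over all genes. The median absolute log2 change was 0.17 for the 28 genes and 0.19 for all genes against Scrambled, and 0.09 and 0.17 against Control. All tested genes include many at low counts and were not matched to the 28 by level, so these sizes are not a like comparison.

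**Figure D1:**
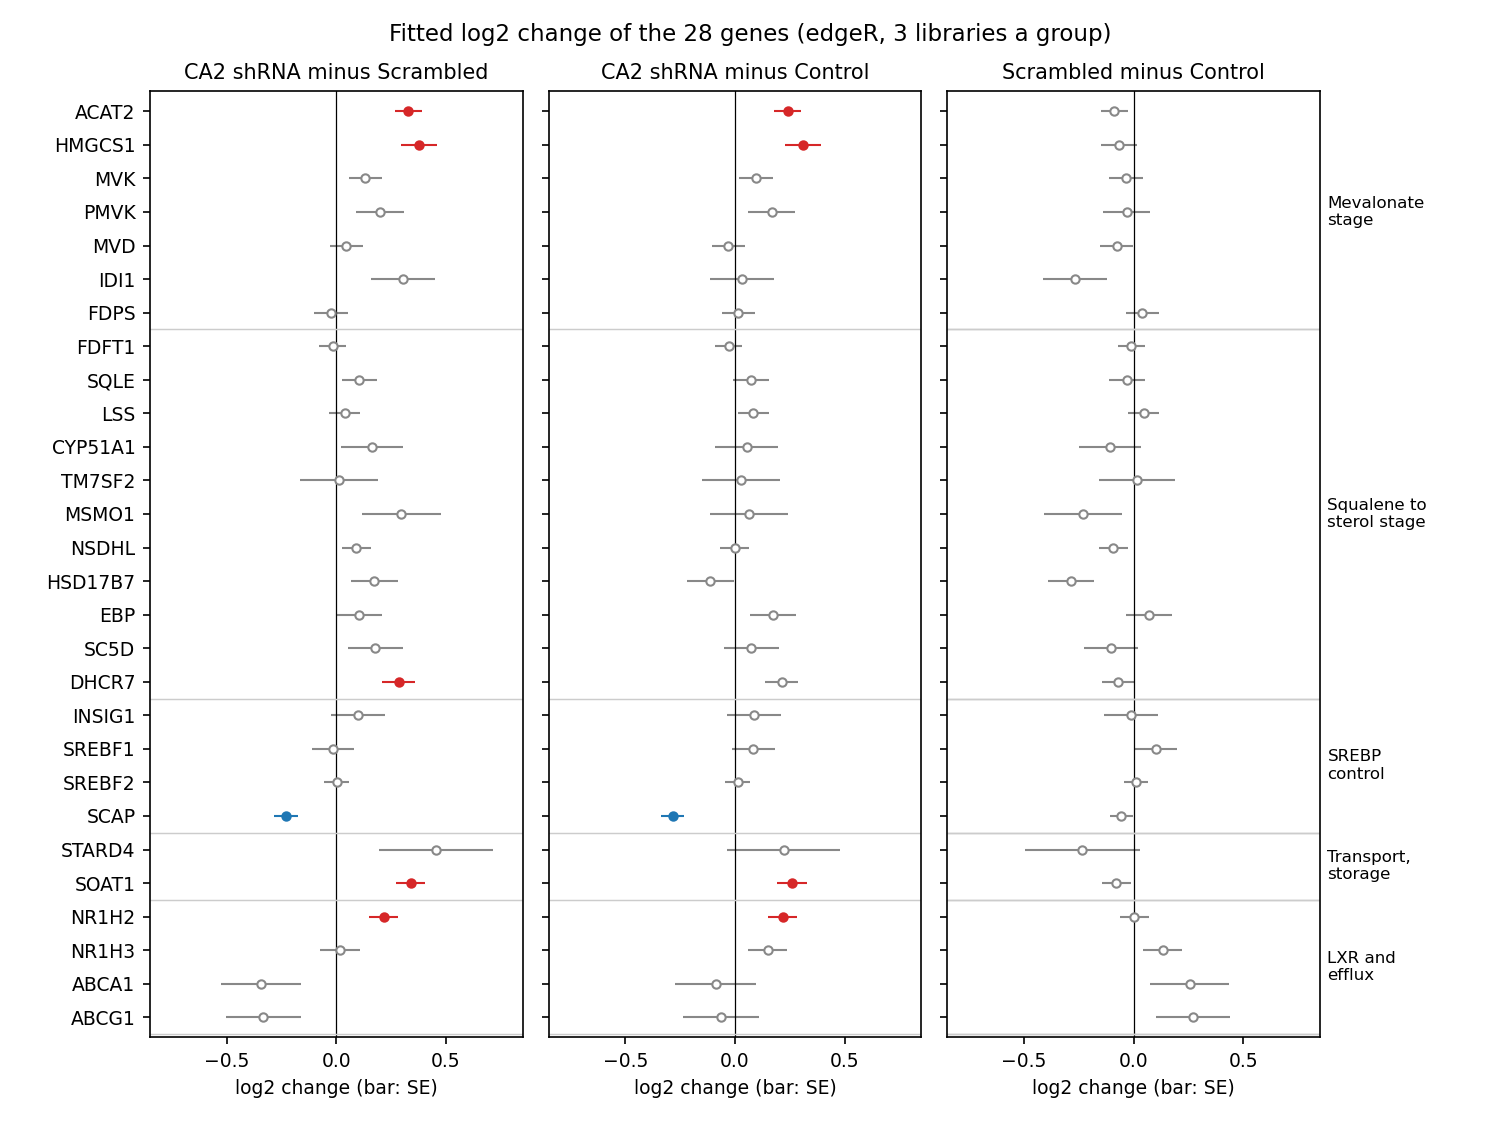
Fitted log2 change (x axis, with its SE as a bar) of each of the 28 genes, grouped by role, in the 3 comparisons of 3 libraries with 3. Filled red points rose and filled blue points fell at an adjusted p under 0.05, and open grey points did not pass; ACAT2, HMGCS1, SOAT1 and NR1H2 are red and SCAP blue in both CA2 shRNA comparisons, DHCR7 is red against Scrambled alone, and no point is filled for Scrambled less Control.

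No difference between Scrambled and Control was detectable over these genes at this depth. None of the 28 passed (0 rose, 0 fell, edgeR), 1 had an unadjusted p under 0.05, and 10 log2 differences were positive and 18 negative, with a median of -0.03. Over all genes 0% passed with edgeR, 1 gene passed with DESeq2, and 550 had an unadjusted p under 0.05. The groups did not overlap for HSD17B7, lower in Scrambled, and NR1H3, higher in Scrambled, 2 of 28 genes, where 6.81% of all genes had groups that did not overlap in either direction.

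Both entry enzymes of the pathway rose. ACAT2 (ENSG00000120437, chr6:159762045-159779112, plus strand), the cytosolic thiolase that joins acetyl-CoA units and is not the sterol acyltransferase that shares its old name, measured 83, 91.7 and 93.8 CPM for Control, 82.8, 84.3 and 85.5 for Scrambled, and 99.2, 110.1 and 108 for CA2 shRNA. Every CA2 shRNA library lay above every control library. ACAT2 rose by 0.33 on the log2 scale (SE 0.062, adjusted p = 0.00121) against Scrambled and by 0.24 (SE 0.062, adjusted p = 0.0132) against Control. Its exons share 17.2% of their length with TCP1 and 5.04% with SOD2 on the other strand. Over all libraries TCP1 had 74761 counts and SOD2 26296, both more than the 20487 of ACAT2. Whether the counting used strand is not given in the sources used here, so reads of these neighbours cannot be told apart in the shared bases.

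HMGCS1 (ENSG00000112972, chr5:43287470-43313512, minus strand), the synthase that forms HMG-CoA, measured 128, 151 and 152 CPM for Control, 124, 137 and 150.2 for Scrambled, and 168, 172 and 195 for CA2 shRNA. The groups again did not overlap, with Control 1 and Scrambled 1 the lowest libraries. The rise was 0.38 (SE 0.083, adjusted p = 0.00575) against Scrambled and 0.31 (SE 0.083, adjusted p = 0.0207) against Control, the largest among the 28 genes past the threshold. Its exons share 37.7% of their length with an opposite-strand gene that was counted at 0.

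The 5 enzymes between mevalonate and farnesyl diphosphate did not pass in either comparison. MVK and PMVK, the kinases that phosphorylate mevalonate, measured 37.8 to 41.7 and 12.2 to 14.5 CPM in Scrambled, and 40.2 to 45.6 and 13.8 to 17.0 in CA2 shRNA. Their log2 differences were 0.13 (adjusted p = 0.274) and 0.20 (adjusted p = 0.235). The decarboxylase MVD (0.05) and the farnesyl diphosphate synthase FDPS (-0.02, 95% interval -0.18 to 0.13) lay close to 0. FDPS reads are uncertain, since near-identical pseudogene copies exist and RUSC1-AS1 overlaps 18.6% of its exons on the other strand.

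IDI1, the isomerase that makes the reactive isoprenoid unit, had a difference as large as those that passed but a wider spread. It measured 73.4, 91.9 and 88.5 CPM for Control, 58.1, 76.1 and 76.1 for Scrambled, and 85.2, 73.3 and 100.4 for CA2 shRNA. The groups overlapped, and the value of 0.30 (95% interval -0.03 to 0.63, adjusted p = 0.214) against Scrambled stood beside 0.03 against Control. It was 0.18 without Scrambled 1, the lowest library, and passed with DESeq2 (adjusted p = 0.0356). Summed over the 7 genes, the mevalonate stage held 458 to 526 CPM in Control, 457 to 497 in Scrambled and 532 to 589 in CA2 shRNA, with the called genes ACAT2 and HMGCS1 in each sum. The sums of the squalene-to-cholesterol enzymes (756 to 844, 773 to 821 and 793 to 879 CPM in the same order), of SREBP control and of the LXR and efflux genes overlapped between CA2 shRNA and both other groups.

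**Figure D2:**
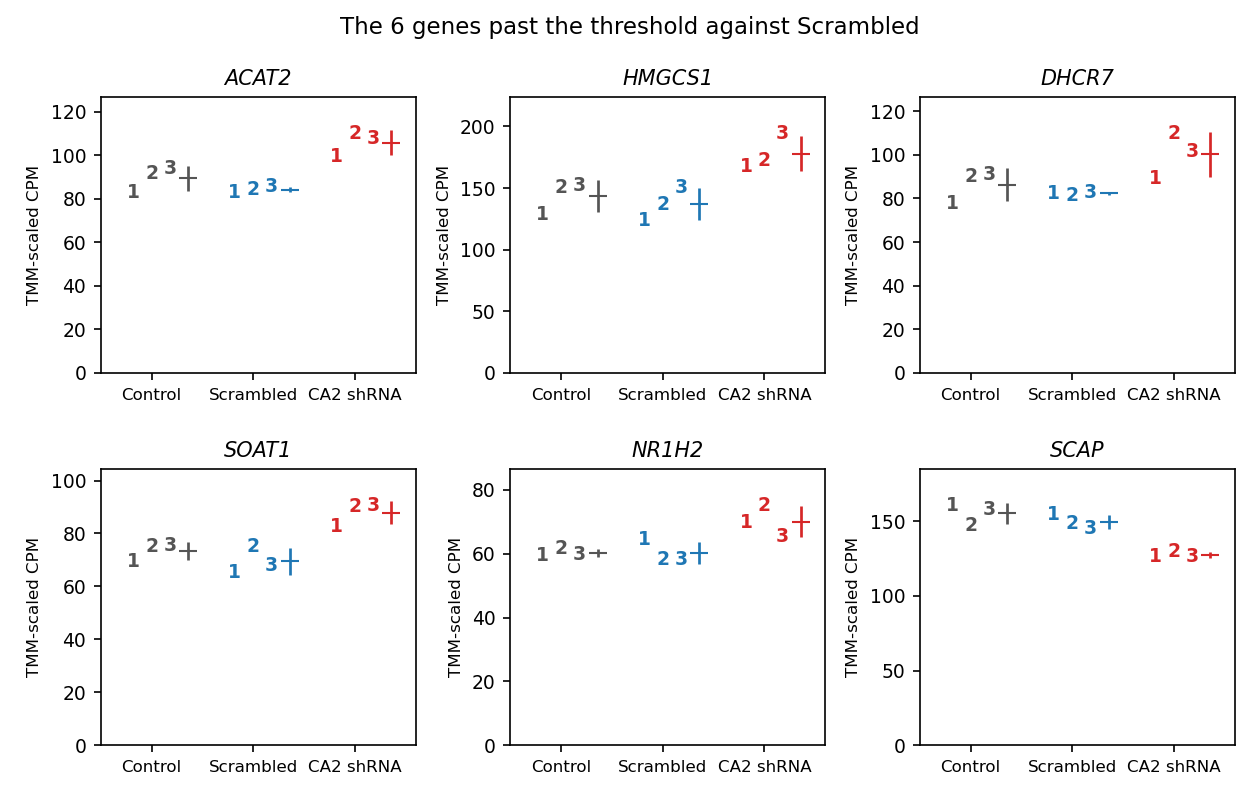
TMM-scaled CPM (y axis, from 0) of the 6 genes past the threshold against Scrambled, with each digit placed at the value of the library with that replicate number, and a cross bar for the mean with its SD over 3 libraries. The CA2 shRNA libraries lie above both control groups for ACAT2, HMGCS1, SOAT1 and NR1H2 and below them for SCAP, while for DHCR7 CA2 shRNA 1 (89.3 CPM) lies below Control 2 and Control 3.

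Among the 11 enzymes from squalene to cholesterol, DHCR7 alone passed, against Scrambled. DHCR7 (ENSG00000172893, chr11:71428193-71452868, minus strand), the reductase that turns 7-dehydrocholesterol into cholesterol, measured 77.9, 90.2 and 91 CPM for Control, 82.5, 81.5 and 82.9 for Scrambled, and 89.3, 109.9 and 102 for CA2 shRNA. The rise was 0.29 (SE 0.075, adjusted p = 0.0140) against Scrambled. Against Control the value was 0.21 (adjusted p = 0.0667), and the groups overlapped through CA2 shRNA 1. The call against Scrambled was lost without Scrambled 3 (adjusted p = 0.0539) or without CA2 shRNA 2 (adjusted p = 0.112).

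The other 10 enzymes of this stage ranged from -0.02 to 0.30 against Scrambled and from -0.11 to 0.17 against Control. FDFT1, the squalene synthase, measured 267, 298 and 299.9 CPM for Control, 276, 286 and 295 for Scrambled, and 262, 291 and 295 for CA2 shRNA. These libraries overlapped fully, at -0.02 (95% interval -0.15 to 0.11) against Scrambled. SQLE, the squalene epoxidase and a rate-controlling step, measured 96.6, 122 and 119.5 CPM for Control, 104, 115 and 111 for Scrambled, and 111, 118 and 127 for CA2 shRNA, at 0.11 (95% interval -0.07 to 0.28). LSS, which closes the sterol rings, gave 0.04 (95% interval -0.11 to 0.19) against Scrambled.

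None of the enzymes that trim lanosterol passed. MSMO1, a C4 methyl oxidase, measured 49.6, 61.6 and 66.8 CPM for Control, 38.6, 60.0 and 52.7 for Scrambled, and 63.3, 53.7 and 68.7 for CA2 shRNA. Its groups overlapped, and the 0.30 against Scrambled (95% interval -0.12 to 0.71) became 0.13 without Scrambled 1, the lowest library. Against Control it was 0.06. NSDHL, the next enzyme of the C4 demethylation, gave 0.09 and 0.00 in the same order, and HSD17B7, its reductase, 0.17 and -0.11. The sterol isomerase EBP gave 0.10 and 0.17, and the desaturase SC5D 0.18 and 0.07. The C14 reductase TM7SF2 gave 0.01 and 0.03 at 5.98 to 9.78 CPM. CYP51A1, the C14 demethylase, gave 0.16 and 0.05 at 4.09 to 5.55 CPM, but 80.6% of its exon length is shared with a second gene on the same strand that was counted at 0, and so its level is uncertain. EBP shares 36.4% of its exon length with a same-strand gene that had 2 counts in all, and its level has the same limit. HSD17B7 has near-identical copies and shares that limit.

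In the SREBP control system the escort SCAP fell and the other 3 genes did not pass. SCAP (ENSG00000114650, chr3:47413681-47477126, minus strand) measured 161, 147 and 158 CPM for Control, 154, 148 and 145 for Scrambled, and 126, 129 and 127 for CA2 shRNA. All 3 CA2 shRNA libraries lay close together and below every control library. SCAP fell by 0.23 (SE 0.054, adjusted p = 0.00681) against Scrambled and by 0.28 (SE 0.054, adjusted p = 0.00125) against Control, and the call against Scrambled was lost without CA2 shRNA 1 (adjusted p = 0.0678) or CA2 shRNA 3 (adjusted p = 0.0584).

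SREBF2, the master factor of cholesterol genes, measured 354, 391 and 395 CPM for Control, 390.3, 368 and 390.4 for Scrambled, and 369, 396 and 386 for CA2 shRNA. Its difference was 0.00 against Scrambled with a 95% interval from -0.12 to 0.12, and 0.01 against Control. SREBF1, whose main targets are fatty acid genes, gave -0.02 (95% interval -0.23 to 0.19) and 0.08. INSIG1, which retains SCAP and is itself an SREBP target, measured 83.4, 106 and 108 CPM for Control, 87.1, 96.8 and 111 for Scrambled, and 94.6, 103 and 118 for CA2 shRNA. The libraries of INSIG1 overlapped across the groups, at 0.10 (95% interval -0.17 to 0.37) against Scrambled.

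SCAP and MVK were the only members with the letters ACACCAA or CACCAAA in a 3′ UTR (GENCODE 29, all coding transcripts). That is 2 of the 28 (7.14%), where 20.4% of all 13970 searched genes held one. These heptamers were known from earlier results of these data to be frequent in falling genes: 49.5% of the 1498 searched genes that fell against Scrambled held one, 9.59% of the 1574 that rose and 18% of those that did not pass. SCAP held 2 sites and MVK 1, shown here with the matching letters in capitals, and none of the 5 rising members held either heptamer. With 9.59% among all rising genes, 0 of 5 does not set the rising members apart. Positions are counted in a single coding transcript of each gene, with a 3′ UTR of 1514 bases for SCAP and 1323 for MVK. Which transcripts these cells express was not tested. The part of these sites in the SCAP result was not tested, and MVK did not pass.

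SCAP, site starting at base 745 of the 3′ UTR: ccctgtgcACACCAAAaacccatc
SCAP, site starting at base 147 of the 3′ UTR: cttaattgACACCAActtttcagc
MVK, site starting at base 154 of the 3′ UTR: gctgaccaACACCAAAgtccctcg

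Of the transport and storage genes, the SOAT1 transcript rose and STARD4 did not pass. SOAT1 (ENSG00000057252, chr1:179293714-179358680, plus strand), the acyltransferase that esterifies cholesterol, measured 69.5, 75 and 75.5 CPM for Control, 65.2, 75.1 and 67.9 for Scrambled, and 82.8, 90.1 and 90.6 for CA2 shRNA. The lowest CA2 shRNA library stood above the highest control library. SOAT1 rose by 0.34 (SE 0.067, adjusted p = 0.00167) against Scrambled and by 0.26 (SE 0.067, adjusted p = 0.0122) against Control.

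STARD4, a soluble carrier that moves cholesterol between membranes and a known SREBP target, had the largest difference of the 28 genes and the widest spread. It measured 14.9, 19.4 and 20.1 CPM for Control, 10.2, 17.5 and 18.3 for Scrambled, and 20.9, 15.9 and 26.2 for CA2 shRNA. The groups overlapped, and the 0.46 against Scrambled had a 95% interval from -0.16 to 1.07 (adjusted p = 0.309). It was 0.23 without Scrambled 1, and against Control it was 0.22 (adjusted p = 0.676).

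Of the LXR and efflux genes, the receptor NR1H2 rose and NR1H3 and both exporters did not pass. NR1H2 (ENSG00000131408, chr19:50329653-50383388, plus strand), the widely expressed LXR beta, measured 59.3, 61.7 and 59.6 CPM for Control, 64.3, 58.3 and 58.3 for Scrambled, and 69.8, 75.1 and 65.3 for CA2 shRNA. CA2 shRNA 3 lay just above Scrambled 1, so the groups were barely separate. The rise was 0.22 against Scrambled (SE 0.067, adjusted p = 0.0339) and 0.22 against Control (SE 0.067, adjusted p = 0.0352), and it was lost in 6 of the 19 alternative settings in each comparison, with adjusted p up to 0.192 and 0.217. NAPSA overlaps 22.1% of its exons on the other strand but had 114 counts in all libraries together. NR1H3, LXR alpha, gave 0.02 (95% interval -0.17 to 0.20) against Scrambled and 0.15 (adjusted p = 0.328) against Control.

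ABCA1, which loads cholesterol onto apolipoprotein A1, measured 45.2, 45.8 and 48.8 CPM for Control, 45.3, 58.8 and 62.5 for Scrambled, and 33.5, 42.4 and 55.1 for CA2 shRNA. The CA2 shRNA libraries spanned all 3 Control values, and the difference was -0.34 against Scrambled (95% interval -0.77 to 0.08, adjusted p = 0.269) and -0.09 against Control. ABCG1, the exporter to high-density lipoprotein, measured 9.41, 14.4 and 15.1 CPM for Control, 13.9, 14.6 and 18.5 for Scrambled, and 11, 12.8 and 13.5 for CA2 shRNA. Its CA2 shRNA libraries lay below all Scrambled libraries but within the Control range, at -0.33 (95% interval -0.71 to 0.04, adjusted p = 0.226) and -0.06. Against Scrambled each passed in 2 of the 19 alternative settings, among them ABCA1 at -0.53 without CA2 shRNA 3 (adjusted p = 0.0239) and ABCG1 at -0.33 with no filter on low counts (adjusted p = 0.0294).

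Counted by groups that do not overlap, 5 of the 28 genes had all their CA2 shRNA values above all their Scrambled values (ACAT2, HMGCS1, DHCR7, SOAT1 and NR1H2), against 15.2% of all genes. SCAP and ABCG1 were lower, against 17.2% of all genes. Towards Control, 6 were higher (ACAT2, HMGCS1, LSS, NR1H2, NR1H3 and SOAT1), against 15.8% of all genes, and SCAP was lower, against 17.2%. As shares of the 28 genes these counts were 17.9% and 21.4% higher, near the background, and 7.14% and 3.57% lower.

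**Figure D3:**
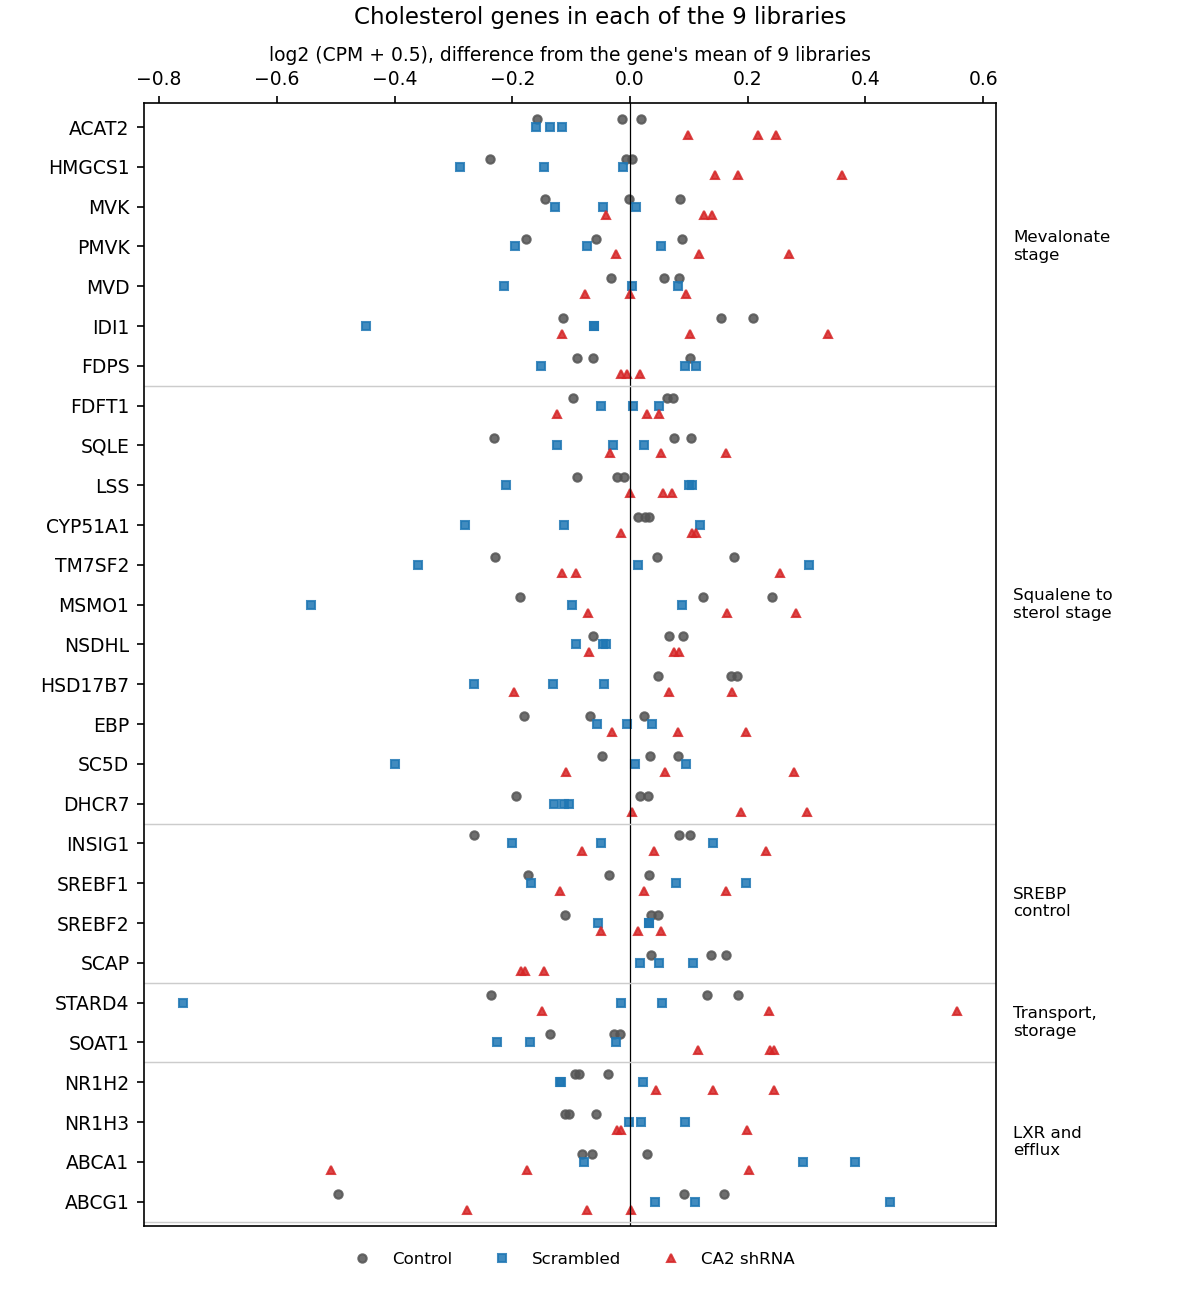
Deviation of log2(CPM + 0.5) from the gene's mean over 9 libraries (x axis) for each of the 28 genes by role, with circles for Control, squares for Scrambled and triangles for CA2 shRNA. The red triangles lie to the right of both other groups for ACAT2, HMGCS1 and SOAT1 and to the left for SCAP, whereas Scrambled 1 sets the far left squares of STARD4, MSMO1, IDI1 and SC5D.

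Single libraries shifted many of these genes at once. Control 1 was the lowest of its group for 22 of the 28 genes (78.6%), where it was the lowest for 37.9% of all tested genes. CA2 shRNA 1 was the lowest of its group for 18 of the 28, against 32.9% of all genes, and CA2 shRNA 3 the highest for 17, against 31.0%. Scrambled 3 was lowest for 2 of the 28, against 25.5% of all genes. The median deviation of the 28 genes from their own means was -0.11 in Control 1, between -0.06 and 0.05 in 7 libraries, and 0.15 in CA2 shRNA 3. Against Control, the rises were lost when either of 2 libraries was left out. Without Control 1, 0 genes rose and SCAP fell, with ACAT2 at 0.19 (adjusted p = 0.0751), HMGCS1 at 0.23 (0.0708), SOAT1 at 0.22 (0.0603) and NR1H2 at 0.21 (0.0993). Without CA2 shRNA 2, 0 rose against Control as well. The calls of ACAT2, HMGCS1 and SOAT1 against Scrambled were kept in all 19 alternative settings, and SCAP kept its call against Control in all 19.

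Levels per exon length placed the members over a wide range. By the deposited RPKM (reads per kilobase of exon, scaled to sequencing depth), FDFT1 at 54.8 ± 2.55 and SREBF2 at 50.5 ± 1.79 (SD over 9 libraries) were the highest, and their ranges overlapped each other but not that of ACAT2, next at 35.2 ± 3.85. From ACAT2 and SREBF1 (35.1) the order ran without a gap through NSDHL (29.7), INSIG1 (27.6), SQLE (26.4), HMGCS1 (23.0), SCAP (22.9), LSS (21.9), DHCR7 (21.7) and the isoprenoid enzymes down to NR1H2 (11.9) and SOAT1 (11). A second gap separated SOAT1 from MVK at 6.38, followed by EBP (5.73), the exporter ABCA1 (4.31), NR1H3 (3.47), STARD4 (3.19) and the lowest genes, SC5D (1.49) and CYP51A1 (1.44). Of the 27 neighbouring pairs in this order, 25 had ranges over the 9 libraries that overlapped. Whether the neighbours differ in level was not tested. The places of CYP51A1 and EBP are uncertain, since 80.6% and 36.4% of their exon length is shared with a same-strand gene. Those of FDPS and HSD17B7, which have near-identical copies, are uncertain too. The receptor NR1H2 was above NR1H3 in every library, and the exporters lay below every enzyme of the mevalonate stage.

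**Figure D4:**
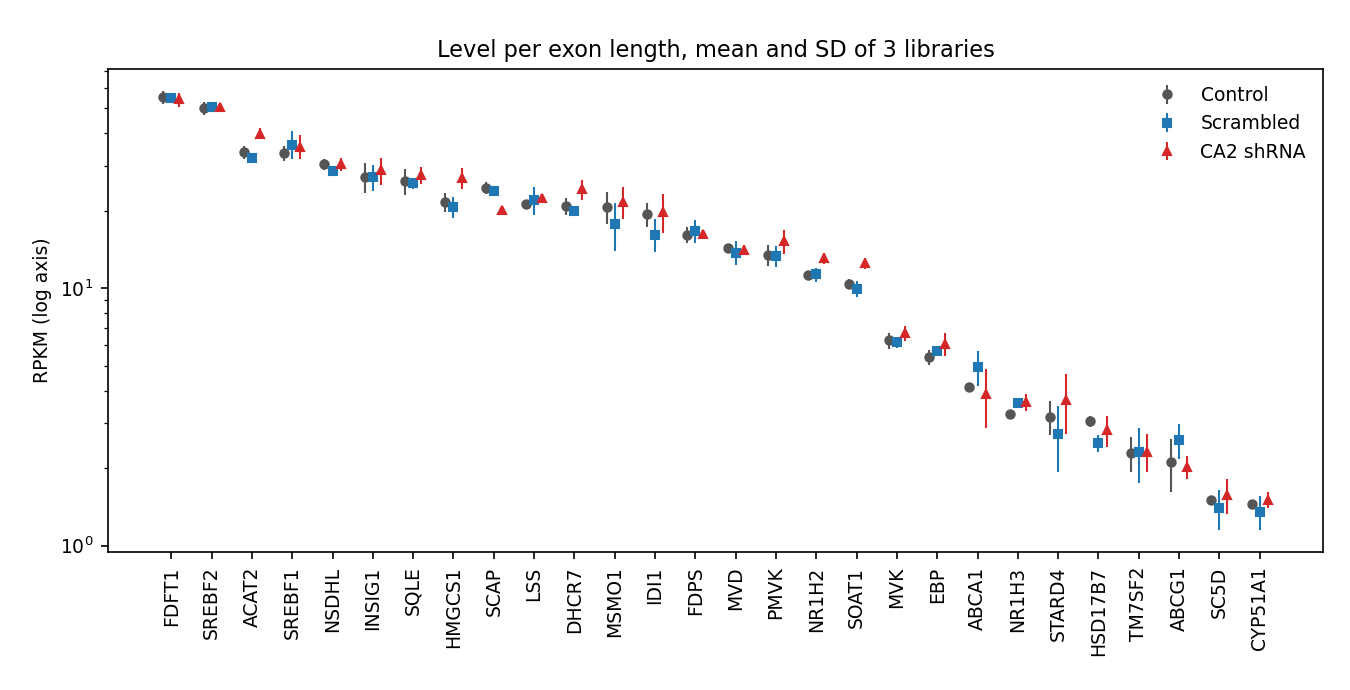
Deposited RPKM (y axis, log scale) of the 28 genes in falling order of their mean over 9 libraries, with the mean and SD of 3 libraries for Control, Scrambled and CA2 shRNA. FDFT1 and SREBF2 stand above the rest, and a gap lies between SOAT1 (11) and MVK (6.38); the raised CA2 shRNA points are ACAT2, HMGCS1, DHCR7, NR1H2 and SOAT1. The places of CYP51A1, EBP, FDPS and HSD17B7 are uncertain, because shared exons or near-identical copies affect their counts.

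Neighbouring genes of the pathway were read from 5 lists, chosen with earlier results of these data known. The counts stand beside 8.02% of all genes that rose and 8.88% that fell against Scrambled, and 6.41% and 8.26% against Control. All genes were not matched to these lists by level either. In uptake and transport, 4 of 15 genes rose against Scrambled, 1 fell and 10 did not pass. NCEH1, the hydrolase that frees cholesterol from its esters, measured 32.1, 34.8 and 34.2 CPM for Control, 30.7, 34.8 and 31.1 for Scrambled, and 62, 70.5 and 64.4 for CA2 shRNA. It rose by 1.03 (SE 0.074, adjusted p = 2.9e-08) against Scrambled and by 0.96 against Control, a larger change than that of any of the 28 genes, and every CA2 shRNA library lay far above the 6 control libraries. GRAMD1B, which carries cholesterol from the plasma membrane to the endoplasmic reticulum, rose from 39.6 ± 0.864 to 52.7 ± 2.80 CPM (0.41, adjusted p = 0.000261). The lysosomal carrier NPC2 rose by 0.28 (adjusted p = 0.00344), and the oxysterol-binding family gene OSBPL9 fell by 0.34 (adjusted p = 0.0026). Against Control 3 rose and 1 fell, with NPC2 at 0.18 (adjusted p = 0.0600), and the rising genes were not all among those that rose against Scrambled.

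In sterol sensing and SREBP processing, 4 of 11 genes rose against Scrambled, 1 fell and 6 did not pass, where 8.02% of all genes rose and 8.88% fell. MBTPS1, the site-1 protease that cleaves SREBP once SCAP has carried it to the Golgi, measured 155 to 165 CPM in Control, 162 in each Scrambled library, and 137, 134 and 136 in CA2 shRNA. It fell by 0.26 (SE 0.051, adjusted p = 0.00161) against Scrambled and by 0.25 (adjusted p = 0.00216) against Control, as SCAP did. The ubiquitin ligase RNF139 (0.37, adjusted p = 0.0171), which takes part in sterol-driven protein breakdown, rose, as did the membrane protein ERLIN1 (0.23, adjusted p = 0.0376). Against Control 1 rose and 1 fell (6.41% and 8.26% of all genes), with RNF139 at 0.26 (adjusted p = 0.0972). The call of RNF139 against Scrambled was lost without Scrambled 1 (adjusted p = 0.0674) or CA2 shRNA 2 (0.0963), and that of ERLIN1 in 5 of 19 settings, with adjusted p up to 0.190.

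Of the LXR partners and oxysterol genes, 3 of 9 rose, 2 fell and 4 did not pass, in both comparisons. Of all genes 8.02% rose and 8.88% fell against Scrambled, and 6.41% and 8.26% against Control. MYLIP, an LXR target whose product breaks down lipoprotein receptors, measured 12.5, 12.3 and 12.9 CPM for Control, 11.2, 13 and 13.9 for Scrambled, and 19.6, 21.5 and 23.2 for CA2 shRNA. It rose by 0.75 (SE 0.098, adjusted p = 2.84e-05) against Scrambled, while the LXR targets ABCA1 and ABCG1 did not pass. CH25H, which makes 25-hydroxycholesterol, rose from 0.641 ± 0.16 to 1.94 ± 0.191 CPM (1.59, adjusted p = 0.000706) on 10 to 47 counts per library, and ABCG2, a transporter of drugs and sterol conjugates, from 6.33 ± 0.706 to 9.07 ± 0.0549 CPM (0.52, adjusted p = 0.00709). The coactivator NCOA1 fell by 0.33 (adjusted p = 0.00193).

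**Figure D5:**
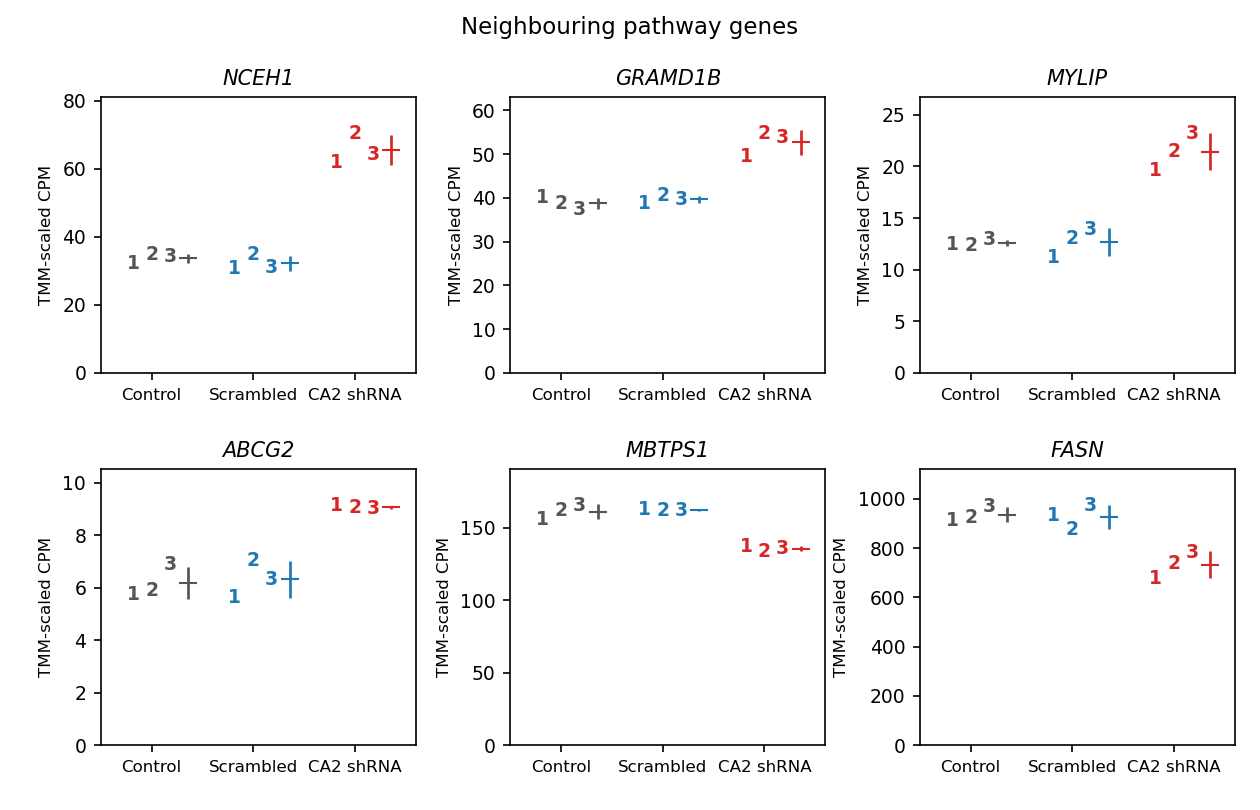
TMM-scaled CPM (y axis, from 0) of 6 genes from the neighbouring lists, with each digit placed at the value of the library with that replicate number and a cross bar for the mean with its SD over 3 libraries. The CA2 shRNA libraries of NCEH1 (62.0 to 70.5 CPM), GRAMD1B, MYLIP and ABCG2 lie above all 6 control libraries, and those of MBTPS1 and FASN lie below them.

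Of 11 fatty acid targets of SREBP, 1 rose, 2 fell and 8 did not pass in each comparison, beside 8.02% of all genes that rose and 8.88% that fell against Scrambled (6.41% and 8.26% against Control). The elongase ELOVL6 rose from 34.6 ± 3.93 to 48.9 ± 5.88 CPM (0.50, adjusted p = 0.00592). The fatty acid synthase FASN measured 911, 924 and 968 CPM for Control, 933, 876 and 973 for Scrambled, and 677, 737 and 784 for CA2 shRNA, and fell by 0.34 (adjusted p = 0.000731). The desaturase FADS1 fell by 0.29 (adjusted p = 0.00121). Branches of the mevalonate route to other isoprenoids gave 0 rises of 10, and 1 fall, DHDDS of dolichol synthesis, by 0.30 (adjusted p = 0.0267), a call lost without Scrambled 1 (adjusted p = 0.0586), Scrambled 3 (0.0985), CA2 shRNA 1 (0.157) or CA2 shRNA 3 (0.144). Of the 7 genes that fell in the 5 lists, 4 held ACACCAA or CACCAAA in a 3′ UTR (DHDDS, MBTPS1, NCOA1 and FASN). The heptamers were absent from 3 (OSBPL9, FADS1 and RXRA, the last named after its values were seen). Of all searched genes that fell against Scrambled 49.5% held one, and some list genes that did not fall held one too. The part of these letters in the falls was not tested.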

How the data were processed

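Counts, CPM and RPKM per gene were taken from the tables the authors deposited, 1 per library, per the file headers. Recomputing from the counts returned the deposited CPM (counts over their sum) and the deposited RPKM (the same per kilobase of exon). Per the submitters' processing notes, STAR 2.5.1a and featureCounts 1.4.6-p5 were run on GRCh38; for the annotation release, the strand setting and multiply mapping reads, details were not given in the sources used here. Symbols came from a reference table for 60401 of 60671 gene IDs and from GENCODE 29 for 246.

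Counts were filtered with filterByExpr (19812 genes left), scaled with TMM factors (0.977 to 1.01) and tested with edgeR 4.0.16 (R 4.3.3), by its quasi-likelihood F test, fitted robustly over the 9 libraries with a term per group and 6 residual degrees of freedom. P-values were Benjamini-Hochberg adjusted over all tested genes, with a threshold of 0.05. The common biological coefficient of variation was 7.94%. The fit was checked on simulated counts with known changes. Intervals are 95% and come from the fit. With 3 libraries a group the smallest p of an exact permutation test is 0.1, and that test was not used. Printed levels are TMM-scaled CPM as values of single libraries or mean ± SD. RPKM serves only to rank genes by level. No 2 libraries agreed within sampling noise (chi-square per gene at least 3.7 over 36 pairs, and at least 4.64 within a group).

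Named genes were CA2, the 28 members, and from each of 5 pathway lists up to 4 genes with the largest change among those past the threshold against Scrambled; 1 gene that this rule names is not reported here. The members, the lists and the heptamers were chosen with earlier results of these data known. The marker lists hold 11 chondrocyte, 6 immune and 5 each of endothelial, epithelial, hepatocyte and adipocyte genes. Alternatives were 3 other scalings, 2 other filters, DESeq2 1.42.0, limma-voom 3.58.1, a fit of the 2 groups compared, a replicate block, and leaving out each library in turn or Control 3 with Scrambled 2. For the pathway lists these were added after the data were seen. Replicate numbers in the labels are not said to mark a shared culture or day, and deviations of same-numbered libraries correlated between -0.185 and 0.105, above 0.1 in 1 of 9 pairs, so they were not taken as pairs.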

Additional observations from a re-analysis of the deposited data

How the results depend on the processing

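Directions held throughout: over 19 alternative settings, none of the log2 changes past the threshold under either setting turned sign, for the 28 genes or for the genes of the pathway lists. Against Scrambled, the 6 calls among the 28 genes were lost 10 times in all (NR1H2 6 times, DHCR7 and SCAP 2 times each) and 5 calls were gained, among ABCA1, ABCG1 and IDI1. Against Control 13 calls were lost and DHCR7 was gained 6 times. Against Scrambled, 2 genes fell with no filter on low counts, where ABCG1 joined SCAP. Leaving out each library in turn gave 3 to 5 rising and 0 to 1 falling genes against Scrambled; 3 rose without Scrambled 3 and without CA2 shRNA 2, and 0 fell without CA2 shRNA 1, and without CA2 shRNA 3 the falling gene was ABCA1 in place of SCAP. Against Control it gave 0 to 5 rising genes, 0 without Control 1 and 0 without CA2 shRNA 2. With fewer libraries fewer residual degrees of freedom remain, and the cause was not tested further. Over all genes, leaving out 1 library gave 2059 to 4011 calls against Scrambled and 1962 to 3662 against Control. Scrambled less Control gave 7 calls with no filter, 1 with DESeq2 and 1 without Scrambled 2, none of them among the 28 genes.

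With the replicate number as a block, 3 of the 28 genes fell against Scrambled, as ABCA1 (-0.35, adjusted p = 0.0194) and ABCG1 (-0.33, adjusted p = 0.0463) joined SCAP, and 5 rose; against Control DHCR7 joined the rising genes (adjusted p = 0.0344). Over all genes the block gave 3422 and 2946 calls, against 3348 and 2906 without it. The libraries share only a number, so these values are no paired test. The scalings moved the median log2 change of all genes against Scrambled between -0.05 and -0.01. Rises were 47.5% of calls with TMM factors, 41% with upper-quartile factors and 54.7% with DESeq2, so the balance of directions over all genes depends on the scaling.

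Depth limits CA2, with 15 to 66 counts per library, and CH25H, with 10 to 47. DESeq2 gave no adjusted p for CH25H.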
